A study of Arabidopsis thaliana with 8 samples.

Results

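The genes described here are 10 osmotic stress and abscisic acid (ABA) response genes of Arabidopsis thaliana, chosen by identifier from the 37361 genes counted in the series. They are RD29A (AT5G52310), RD29B (AT5G52300), COR15A (AT2G42540), KIN1 (AT5G15960), KIN2 (AT5G15970), RAB18 (AT5G66400), ERD10 (AT1G20450), COR47 (AT1G20440), P5CS1 (AT2G39800) and ADH1 (AT1G77120). All 10 passed the filter on low counts that left 22744 genes for testing. The measurement was RNA-seq of whole seedlings of the Col-0 accession, 12 days old according to the extraction protocol and grown at 23 °C with 16 h of light, and no stress or hormone treatment is named in the labels. The 4 genotypes were the double mutants of fry1-6 with rdr6-11 (written fry1-6 rdr6-11) or with rdr1-1 (fry1-6 rdr1-1), the single mutant fry1-6, whose allele both double mutants carry, and wild type (WT), with 2 libraries each. fry1-6 and rdr1-1 are T-DNA insertion lines, each genotype is a single line, and the number of seedlings pooled in a library is not given in the sources used here. The genotype entry of both libraries titled as fry1-6 rdr1-1 names the rdr6 double mutant instead, and the titles and the design text were followed. The study's methods differ from the labels on the library kit and on day length and temperature, and these differences were not resolved here.

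Water deficit, salt and cold raise a common set of transcripts in Arabidopsis. Part of this response runs through ABA, in which PYR/PYL receptors bind the hormone and inhibit clade A PP2C phosphatases, so that SnRK2 kinases activate ABF transcription factors that bind the ABA-responsive element (ABRE). Another part runs through CBF and DREB2 factors, which bind the dehydration-responsive element (DRE). FRY1 encodes a phosphatase that breaks down PAP, an inhibitor of 5′-to-3′ exoribonucleases, and fry1 was first isolated from the activity of a reporter driven by the RD29A promoter. The RNA-dependent RNA polymerases RDR6 and RDR1 make the double-stranded precursors of small interfering RNAs. The comparisons ask how the stress transcripts stand in fry1-6 and whether the loss of either polymerase goes with another level.

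The promoter stretches shown here are those of the members in which both kinds of element were found near the annotated start or which the results turn on. Each is the 200 bases before the annotated gene start in the RefSeq annotation of TAIR10.1, written 5′ to 3′ on the strand of the gene, with the core of the DRE (CCGAC, or GTCGG where it lies on the other strand) and the core of the ABRE (ACGTG, or CACGT on the other strand) in capitals. Where they read CACGTG, both forms of the ABRE core overlap. RD29A lies on chromosome 5 at chr5:21240717-21243644 (plus strand, 4 exons), and its window is chr5:21240517-21240716. RD29B is its neighbour on the same strand at chr5:21237021-21239531 (5 exons), with the window chr5:21236821-21237020. COR15A lies on chromosome 2 at chr2:17710441-17712330 (minus strand, 2 exons), with the window chr2:17712331-17712530.
RD29A: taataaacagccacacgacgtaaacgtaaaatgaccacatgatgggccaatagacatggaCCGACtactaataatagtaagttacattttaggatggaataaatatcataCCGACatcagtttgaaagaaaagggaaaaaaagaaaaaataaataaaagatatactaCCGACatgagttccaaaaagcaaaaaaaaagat
RD29B: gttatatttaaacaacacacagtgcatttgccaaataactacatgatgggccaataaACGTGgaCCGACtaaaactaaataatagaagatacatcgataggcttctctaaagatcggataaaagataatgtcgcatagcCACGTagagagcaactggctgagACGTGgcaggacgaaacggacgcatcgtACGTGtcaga
COR15A: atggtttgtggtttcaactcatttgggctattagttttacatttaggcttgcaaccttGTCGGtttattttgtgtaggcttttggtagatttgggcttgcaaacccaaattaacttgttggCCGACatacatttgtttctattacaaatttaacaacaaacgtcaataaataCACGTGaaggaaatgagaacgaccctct

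RD29A had 3 DRE cores in its window, 140, 90 and 33 bases before the gene start, and no ABRE core. RD29B had 1 DRE core and 4 ABRE cores. COR15A had 2 DRE cores and a CACGTG. RAB18 (chr5:26518277-26519447, minus strand, 2 exons) overlaps its divergent neighbour AT5G66410 by 11 bases, and its whole window lies within that gene, so only 25 bases around each of its 3 ABRE cores are shown, at chr5:26519596-26519620, chr5:26519544-26519568 and chr5:26519451-26519475.
RAB18 site at 163 bases: acgacgatgtACGTGtgtatgaaaa
RAB18 site at 111 bases: gaggagcattACGTGtcctgttagc
RAB18 site at 18 bases: ttgatatgaaCACGTacttggtatc

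Among the 10 members, 3 windows held a DRE core (RD29A, RD29B and COR15A), 6 held an ABRE core (RD29B, COR15A, KIN1, KIN2, RAB18 and ADH1) and 2 held both. Over the windows of 27443 protein-coding genes the shares were 10.1%, 19.8% and 2.51%. ERD10, COR47 and P5CS1 had no match in these letters. Their annotated starts lie 499, 1209 and 380 bases before the start codon, so their windows lie farther from the coding sequence than that of RD29A, where the distance is 212 bases. COR15A, where the distance is 364 bases, had matches. The bases between gene start and start codon were not searched in any member, RD29A included. A match describes the sequence and is not evidence of binding.

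Between 15069329 and 26285519 reads were counted on genes per library, and 3 counts correspond to between 0.121 and 0.215 CPM (counts relative to the library total, scaled by TMM). Within a genotype the libraries were further apart than sampling noise allows (chi-square of 17.3 to 99.9 per gene). The labels call them biological replicates and do not say what separates them. Chloroplast genes took between 2.29% and 2.80% of the counts in the 4 double-mutant libraries and between 0.0342% and 0.173% in fry1-6 and WT, and the TMM factors were 1.14 and 1.22 in fry1-6 rdr6-11 and between 0.892 and 0.994 in the other 6 libraries. The part of either in the results below was not tested. The chloroplast share separated both double mutants from fry1-6 and WT, so in comparisons between them it cannot be told apart from genotype. Leaving out the organelle genes before scaling changed no call of a member, which does not test how the libraries differ otherwise. The mutated genes FRY1, RDR6 and RDR1 were not called in any comparison. FRY1 (AT5G63980) was higher in every library that carries fry1-6 than in both WT libraries. It was at 80.6 and 151 CPM in fry1-6 rdr6-11, with 55.0 and 118 in fry1-6 rdr1-1, 101 and 93.6 in fry1-6 and 49.1 and 27.5 in WT. A count for a whole gene does not show where in it the reads fell and includes those of a disrupted allele, so it checks no label, and the genotypes below are those the libraries are labelled with. Of the tissue markers, the 3 leaf genes summed to between 12146 and 31432 CPM in all 8 libraries and the 4 root genes to between 1.35 and 9.29 CPM. The 8 seed storage and oil body genes had at most 6 counts in any library, with SESA1 and SESA3 at 0. The 3 flower genes AP3, PI and AG had at most 29 counts in any library and did not pass the filter. PI was highest in WT, at a mean of 0.996 CPM, and its WT libraries differed 8.29-fold. In whole seedlings, fewer cells of a type and less RNA per cell cannot be told apart.

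Levels differed widely between the members. Per kilobase of exon, KIN2 was the most abundant in every genotype, with a mean of 140.4 CPM per kilobase in fry1-6 rdr6-11, 432 in fry1-6 rdr1-1, 374 in fry1-6 and 1005 in WT. RD29B was the least abundant, between 0.257 and 1.02 CPM per kilobase, with 7 to 52 counts in a library. Summed over the 10 genes, the level was 645 and 556 CPM in fry1-6 rdr6-11, with 1250.4 and 2733 in fry1-6 rdr1-1, 1439.7 and 1479 in fry1-6, and 3979 and 1378 in WT. By genotype mean, 8 of the 10 were lowest in fry1-6 rdr6-11. RD29A, KIN2, RAB18, ERD10 and P5CS1 were lower in both libraries of that double mutant than in each of the 6 other libraries. The exceptions were RD29B, whose mean was lowest in fry1-6, and ADH1, whose mean was lowest in WT. How many of all tested genes had their lowest mean, or both libraries below the 6 others, in fry1-6 rdr6-11 was not counted. Against WT alone, both libraries of fry1-6 rdr6-11 were lower in 27.1% of all tested genes.

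**Figure D1:**
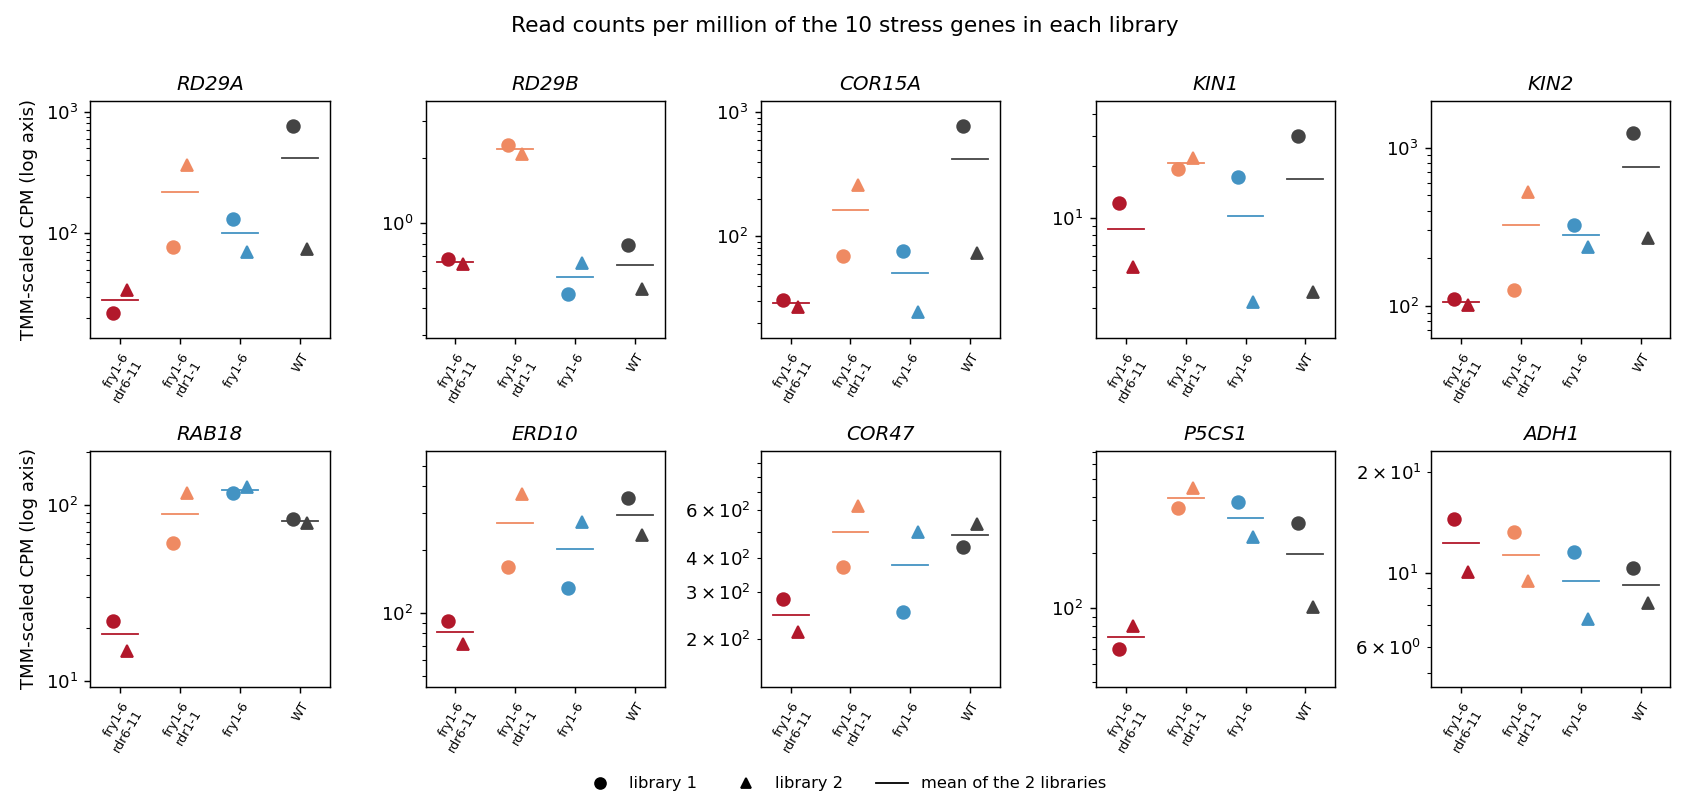
TMM-scaled CPM (log axis) of the 10 stress genes in each library, with circles for library 1, triangles for library 2 and a line at the mean of the 2 libraries. Both libraries of fry1-6 rdr6-11 lie below all others for RD29A, KIN2, RAB18, ERD10 and P5CS1. How many of all tested genes did so was not counted. The 2 WT libraries lie far apart for RD29A, COR15A, KIN1 and KIN2.

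The 3 dehydrin genes were RAB18, ERD10 and COR47, of which RAB18 and ERD10 were called lower in fry1-6 rdr6-11 than in WT. Dehydrins are hydrophilic late embryogenesis abundant (LEA) proteins that accumulate in drying or chilled cells. RAB18, the dehydrin named for its response to ABA, was at 21.9 and 14.7 CPM in fry1-6 rdr6-11, against 83.1 and 78.5 CPM in WT. The genotypes did not overlap, and the libraries differed 1.49-fold within fry1-6 rdr6-11 and 1.06-fold within WT. Its level was 4.42-fold lower in the double mutant (log2 fold change -2.14, standard error 0.34, Benjamini-Hochberg adjusted p = 0.0100 over all tested genes, from the quasi-likelihood model of edgeR). RAB18 was also lower than in fry1-6, where it was at 116 and 127 CPM, by 6.63-fold (log2 fold change -2.73, standard error 0.35, adjusted p = 0.0165). Of 16 alternative settings and omissions of a library, 15 kept the call against WT and 12 that against fry1-6. The settings that lost the call against WT and fry1-6 each left a genotype of the comparison with a single library: adjusted p = 0.0872 against WT without the second fry1-6 rdr6-11 library, and between 0.0707 and 0.176 against fry1-6.

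ERD10 (chr1:7087903-7089606, minus strand, 2 exons), a dehydrin first found as an early response to dehydration, was at 92.2 and 71.1 CPM in fry1-6 rdr6-11, 132 and 271 in fry1-6, and 354 and 234 in WT. Both double-mutant libraries lay below those of fry1-6 and WT. The difference from WT was 3.60-fold (log2 fold change -1.85, standard error 0.49, adjusted p = 0.0441), and that from fry1-6 was not called (-1.30, standard error 0.49, adjusted p = 0.160). The call against WT was kept in 10 of 16 alternatives. Among others, it was lost with total counts (adjusted p = 0.0568), without the first WT library (0.109) and without the first (0.151) or the second (0.226) library of fry1-6 rdr6-11. COR47 (chr1:7084409-7086873, minus strand, 2 exons), the dehydrin gene beside ERD10, was at 281 and 212 CPM in fry1-6 rdr6-11, against 439.6 and 535 CPM in WT. The libraries did not overlap, and the log2 fold change of -0.98 (standard error 0.39) was not called (adjusted p = 0.125). The coding sequences of ERD10 and COR47 are 74.1% identical and share no stretch of 50 bases.

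The hydrophilic cold- and dehydration-induced genes showed the largest fitted differences and the widest spread between libraries. RD29A, the gene of the reporter, was at 22.2 and 34.1 CPM in fry1-6 rdr6-11, 132 and 70.7 in fry1-6, and 764 and 74.0 in WT. The WT libraries differed 10.3-fold, and the lower of them lay within the range of fry1-6, while both libraries of fry1-6 rdr6-11 were below all others. Against WT, the log2 fold change in fry1-6 rdr6-11 was -3.90 (standard error 1.20, adjusted p = 0.0644). Without the first WT library the log2 fold change was -1.40 (adjusted p = 0.272), and without the second it was -4.77 (adjusted p = 0.0205). COR15A, a LEA protein of the chloroplast, was at 30.6 and 26.8 CPM in fry1-6 rdr6-11, 76.4 and 24.4 in fry1-6, and 769 and 72.7 in WT. Its difference between fry1-6 rdr6-11 and WT was -3.87 on the log2 scale (standard error 1.21, adjusted p = 0.0674), and it was -1.35 without the first WT library. COR15A ends 7 bases before the start of its tandem copy COR15B (AT2G42530), whose coding sequence is 82.9% identical with no shared stretch of 50 bases.

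KIN1 (chr5:5209717-5210826) and KIN2 (chr5:5211719-5212743) are neighbouring genes of 3 exons on the plus strand for small cold-induced proteins. Their coding sequences are 201 bases each and 95.0% identical, and 9 of the 152 stretches of 50 coding bases in KIN1 also occur in KIN2, so reads with equal matches may have been given to either copy. KIN2 was at 110.1 and 100.5 CPM in fry1-6 rdr6-11, 326 and 235 in fry1-6, and 1238 and 269.6 in WT. All 6 of the single-mutant, WT and rdr1-1 libraries were higher than those of fry1-6 rdr6-11. The log2 fold change against WT was -2.84 (standard error 0.87, adjusted p = 0.0630), and against fry1-6 it was -1.41 (standard error 0.82, adjusted p = 0.333). KIN1 was at 12.2 and 5.19 CPM in fry1-6 rdr6-11, against 29.8 and 3.74 CPM in WT, and the genotypes overlapped.

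RD29B, the neighbour of RD29A with more ABRE cores, did not share this pattern. It had 16 and 14 counts in fry1-6 rdr6-11 (0.680 and 0.644 CPM), 50 and 52 counts in fry1-6 rdr1-1 (2.32 and 2.1 CPM), 7 and 10 counts in fry1-6 (0.468 and 0.650 CPM) and 11 and 8 counts in WT (0.787 and 0.491 CPM). The fry1-6 rdr1-1 libraries were above all others, and the 3 other genotypes overlapped. RD29B was 3.46-fold higher in fry1-6 rdr1-1 than in WT (log2 fold change 1.79, standard error 0.39, adjusted p = 0.0395). This call held in 4 of 15 alternatives, with adjusted p from 0.0359 to 0.193. Against fry1-6 the log2 fold change was 1.97 (standard error 0.39, adjusted p = 0.138).

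P5CS1 and ADH1 encode enzymes. P5CS1 (chr2:16598072-16603319, minus strand, 21 exons), whose product catalyses the rate-limiting step of proline synthesis from glutamate, overlaps AT2G39795 by 91 bases. It was at 59.96 and 80.4 CPM in fry1-6 rdr6-11, with 347 and 445 in fry1-6 rdr1-1, 375 and 243 in fry1-6, and 291 and 101 in WT. Both fry1-6 rdr6-11 libraries were below the 6 others. The log2 fold change was -1.48 against WT (standard error 0.49, adjusted p = 0.0797) and -2.14 against fry1-6 (standard error 0.50, adjusted p = 0.0614). The comparison with fry1-6 passed the threshold in 5 of 16 alternatives, DESeq2 among them. ADH1 (chr1:28975255-28977417, plus strand, 7 exons), the alcohol dehydrogenase of fermentation, overlaps AT1G77122 by 61 bases and was at 14.5 and 10.02 CPM in fry1-6 rdr6-11, with 13.2 and 9.45 in fry1-6 rdr1-1, 11.6 and 7.28 in fry1-6, and 10.3 and 8.09 in WT. Its genotypes overlapped in all 6 comparisons, with adjusted p of at least 0.389.

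Between fry1-6 rdr6-11 and WT, 2 of the 10 members were thus called lower in the double mutant (RAB18 and ERD10) and 0 higher, where 7.94% of all tested genes were called lower and 10.9% higher. In 7 of 10 both libraries of the double mutant lay below both of WT, as they did in 27.1% of all tested genes, and 7 of 10 had an unadjusted p under 0.05, where 35.3% of all tested genes did. The median log2 fold change of the members was -1.67, and that of all tested genes was 0.039. DESeq2 called 7 of the 10 lower (RD29A, COR15A, KIN2, RAB18, ERD10, COR47 and P5CS1) and 11.5% of all genes to which it gave an adjusted p. The count was 1 without the first WT library and 6 without the second, and the median of the members was -1.23 and -2.09 in these fits.

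Set against fry1-6, 1 of the 10 was called lower in fry1-6 rdr6-11 (RAB18) and 0 higher, where 2.93% of all tested genes were called lower and 1.83% higher. Both libraries of the double mutant were below both of fry1-6 in 5 of 10 members (RD29A, KIN2, RAB18, ERD10 and P5CS1) and in 29.2% of all tested genes. The median of the members was -1.06 on the log2 scale, against 0.021 for all tested genes. DESeq2 called RAB18, ERD10 and P5CS1 lower, and 7.99% of all its genes. Scaling by total counts in place of TMM moved the median of all tested genes to 0.27 here and to 0.41 in the comparison with WT, and the members kept medians of -0.81 and -1.28 on that scale.

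In fry1-6 against WT, 0 of the 10 were called by edgeR, with 1 at an unadjusted p under 0.05, and DESeq2 called 0 as well, with 2 at an unadjusted p under 0.05. Over all tested genes, edgeR called 5.03% higher and 0.387% lower and had 18.9% at an unadjusted p under 0.05, and DESeq2 called 7.91% in either direction and had 14.7% at an unadjusted p under 0.05. The libraries overlapped in 9 of 10 members, and in none of the 10 did both fry1-6 libraries lie below both of WT, as they did in 19.1% of all tested genes. RAB18 was the exception, with 116 and 127 CPM in fry1-6 above 83.1 and 78.5 CPM in WT, a difference of 0.59 on the log2 scale that was not called (standard error 0.33, adjusted p = 0.409). RD29A had a log2 fold change of -2.05 with a standard error of 1.11 (adjusted p = 0.390), and COR15A one of -3.06 with a standard error of 1.17 (adjusted p = 0.220). Without the first WT library the estimate for RD29A was 0.45. Between libraries of the same number, RD29A was lower in fry1-6 both times, at 132 against 764 CPM and at 70.7 against 74.0 CPM in WT. The median of the members was -0.46, against -0.028 for all tested genes, and it was 0.20 without the first WT library.

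**Figure D2:**
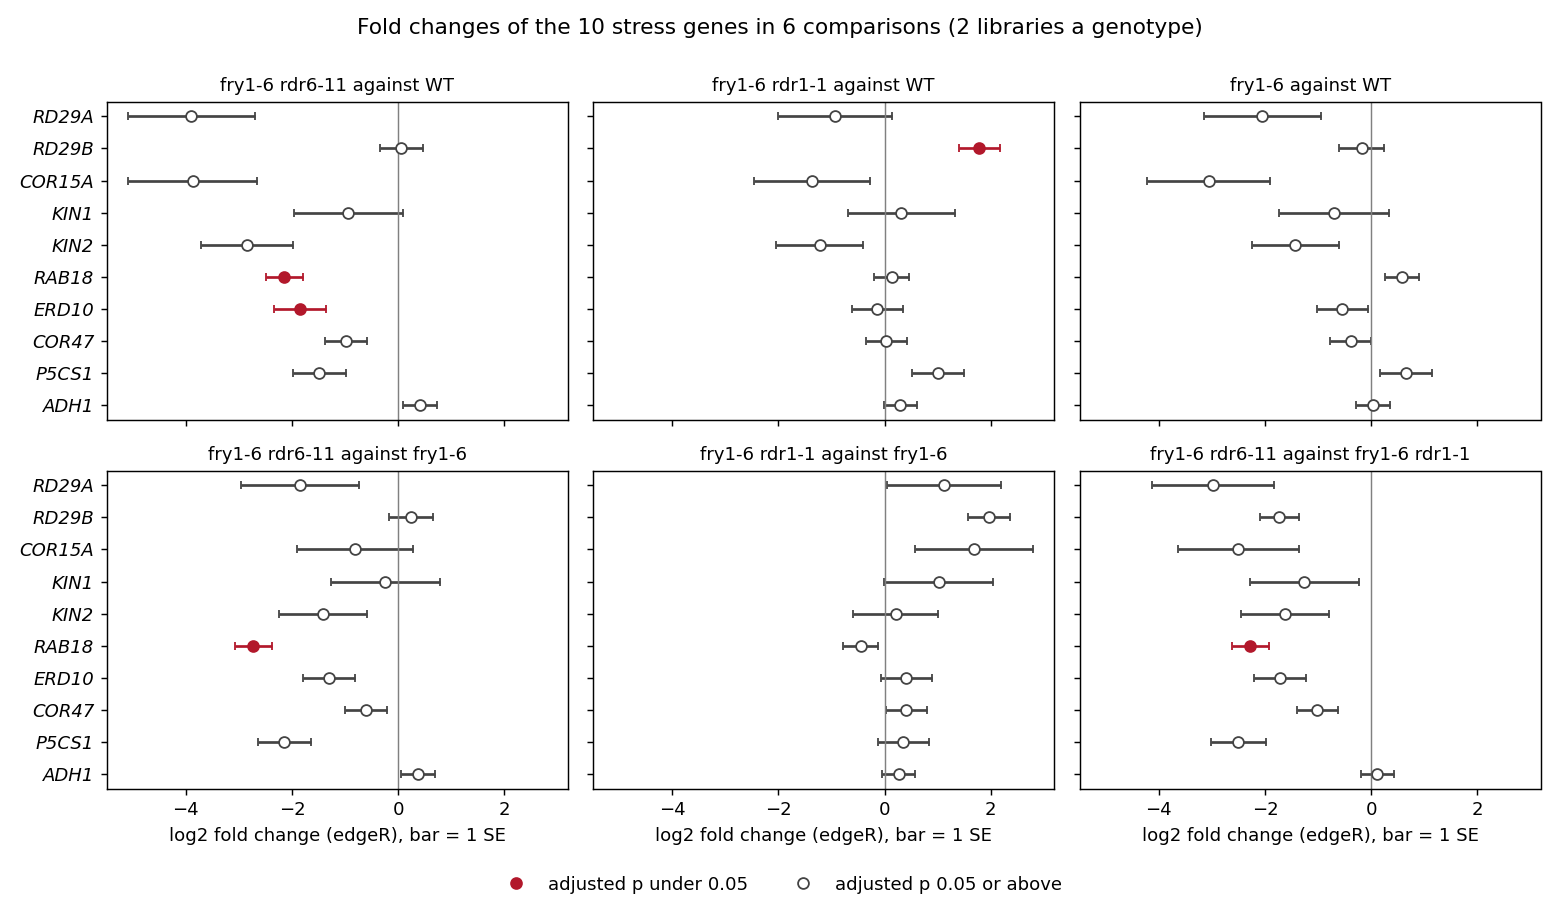
Log2 fold changes of the 10 stress genes in 6 comparisons from edgeR, with bars of 1 standard error and filled points where the adjusted p is under 0.05. The filled points are RAB18 and ERD10 in fry1-6 rdr6-11 against WT, RAB18 against fry1-6 and against fry1-6 rdr1-1, and RD29B in fry1-6 rdr1-1 against WT.

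The members lay on both sides of WT in fry1-6 rdr1-1. By fitted log2 fold change they ran from -1.37 for COR15A to 1.79 for RD29B. Of the 10 members, 1 was called higher than in WT (RD29B) and 0 lower, where 5.90% and 2.07% of all tested genes were called. The median log2 fold change of the members was 0.081, against 0.048 for all tested genes, and it was 0.82 without the first WT library and -0.16 without the second. P5CS1 was at 347 and 445 CPM in fry1-6 rdr1-1, above both WT libraries, with a log2 fold change of 1.01 that was not called (standard error 0.49, adjusted p = 0.240). RD29B lost the call whichever library was left out (adjusted p from 0.0542 to 0.193), and P5CS1 gained it without the first WT library (log2 fold change 1.96, adjusted p = 0.0364). The 2 libraries of fry1-6 rdr1-1 differed 4.72-fold for RD29A (77.0 and 364 CPM), 4.17-fold for KIN2 (125 and 522 CPM) and 3.74-fold for COR15A (68.7 and 257 CPM). Against fry1-6, edgeR and DESeq2 each called 0 of the 10, with RD29B at an unadjusted p under 0.05 by both, where edgeR called 0.207% of all tested genes higher and 0.0572% lower, and DESeq2 called 2.83% in either direction. The share at an unadjusted p under 0.05 was 15.7% of all tested genes by edgeR and 11.2% by DESeq2.

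The double mutants were compared with each other after the values above had been seen. In fry1-6 rdr6-11 against fry1-6 rdr1-1, both libraries were lower in 9 of 10 members, ADH1 being the exception, and in 28.2% of all tested genes. RAB18 was called lower, at 21.9 and 14.7 CPM in fry1-6 rdr6-11, against 60.3 and 117 CPM in fry1-6 rdr1-1 (4.84-fold, log2 fold change -2.28, standard error 0.34, adjusted p = 0.0422). No other member was called, where 1.00% of all tested genes were called lower and 0.101% higher, and 6 of 10 had an unadjusted p under 0.05, where 16.3% of all tested genes did. DESeq2 called RAB18, ERD10 and P5CS1 lower, and 4.93% of all its genes. P5CS1 had the next smallest adjusted p, at 0.0896, and a difference of -2.50 on the log2 scale with a standard error of 0.51. The RAB18 call was kept in 8 of 16 alternatives and was lost, among others, with total counts (adjusted p = 0.0609) and when either fry1-6 library or any library of the compared genotypes was left out. The comparisons share libraries, and agreement among them is not independent.

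The members varied more between libraries of a genotype than most genes did. In WT the members differed by a median of 2.08-fold between the 2 libraries, and all tested genes by 1.33-fold. A difference over 2-fold was found in 5 of 10 members in WT and in 17.6% of all tested genes. The first WT library was the higher one in 9 of 10 members, with COR15A 10.6-fold, RD29A 10.3-fold and KIN1 7.96-fold higher, and COR47 was the exception. In fry1-6 the members differed by a median of 1.72-fold, in fry1-6 rdr1-1 by 1.80-fold with the second library higher in 8 of 10, and in fry1-6 rdr6-11 by 1.33-fold. The median over all tested genes was 1.23-fold in fry1-6, 1.17-fold in fry1-6 rdr1-1 and 1.14-fold in fry1-6 rdr6-11. Among the 22744 tested genes, the first library was the higher one in 12232 in WT and in 11628 in fry1-6 rdr1-1. RAB18 had the smallest difference between the WT libraries, at 1.06-fold. What separated the libraries was not tested.

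**Figure D3:**
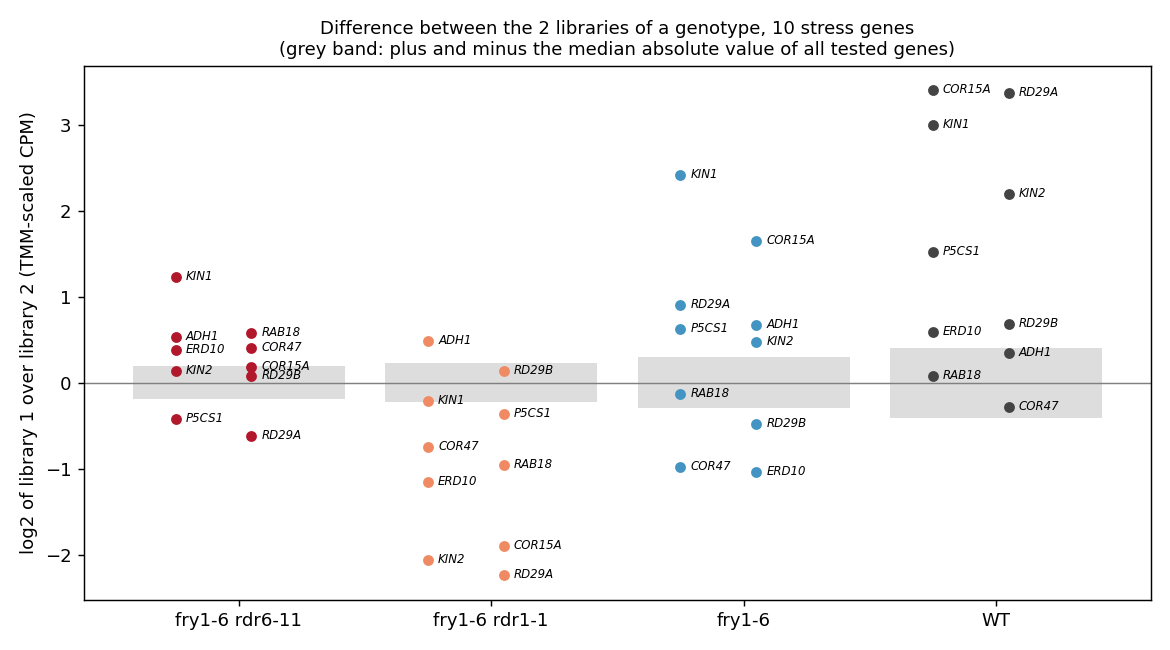
Log2 ratio of library 1 over library 2 for each stress gene within each genotype, with a grey band at plus and minus the median absolute ratio of all tested genes. RD29A (10.3-fold) and COR15A (10.6-fold) are the highest points in WT, both lie well below 0 in fry1-6 rdr1-1, and RAB18 lies near 0 in WT and fry1-6.

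The rest of the pathway was examined through 9 lists of 91 genes, of which 83 were tested. Of these 83, 9 were called lower in fry1-6 rdr6-11 than in WT and 2 higher, beside 7.94% and 10.9% of all tested genes, and their median log2 fold change was -0.51. Among the regulators, DREB2A (AT5G05410), a DRE-binding factor of the drought and heat response, was at 5.14 and 3.82 CPM in fry1-6 rdr6-11, with 9.12 and 22.8 in fry1-6 rdr1-1, 15.5 and 15.4 in fry1-6, and 35.6 and 16.1 in WT. Against WT its log2 fold change was -2.52 (standard error 0.53, adjusted p = 0.0219), and it was the only one called of 6 tested genes in the list of CBF and DREB2 factors, which also holds their activator ICE1. ABF3 (AT4G34000), an ABRE-binding factor, was at 10.4 and 11.7 CPM in fry1-6 rdr6-11, against 34.3 and 17.8 CPM in WT (log2 fold change -1.24, standard error 0.30, adjusted p = 0.0317). It was the only one called of 8 tested SnRK2 kinases and ABF or ABI factors. The alternative settings and omissions of a library were read for the members only, so calls of genes outside the members have no such check.

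Of the tested genes of ABA synthesis, breakdown and perception, ABA1 was called lower and PYL8 higher in fry1-6 rdr6-11. ABA1 (AT5G67030), the zeaxanthin epoxidase of ABA synthesis, was at 44.2 and 33.6 CPM in fry1-6 rdr6-11, with 472 and 304 in fry1-6 rdr1-1, 420.3 and 322 in fry1-6, and 245 and 186 in WT. The log2 fold change was -2.47 against WT (standard error 0.31, adjusted p = 0.00472) and -3.26 against fry1-6 (standard error 0.32, adjusted p = 0.00789), and ABA1 was the only one called of 9 tested genes of ABA synthesis and breakdown. PYL8 (AT5G53160), an ABA receptor, was higher, at 183 and 162 CPM in fry1-6 rdr6-11, 74.2 and 86.7 in fry1-6, and 60.4 and 73.2 in WT. Its log2 fold change was 1.37 against WT (standard error 0.19, adjusted p = 0.00674) and 1.102 against fry1-6 (standard error 0.19, adjusted p = 0.0332), and none of the 8 other receptors tested was called. Of 7 tested clade A phosphatases, ABI2 (AT5G57050, log2 fold change -1.67, adjusted p = 0.0228) and HAB2 (AT1G17550, -0.78, adjusted p = 0.0438) were lower in fry1-6 rdr6-11 than in WT. HAI1 (AT5G59220), another phosphatase of this clade, was lower in fry1-6, at 1.07 and 0.715 CPM, against 5.01 and 5.64 CPM in WT (log2 fold change -2.57, standard error 0.54, adjusted p = 0.0439), and was the only one of the 83 genes called in that comparison.

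Among further stress-induced genes, COR413-PM1 (AT2G15970), which encodes a cold-regulated membrane protein, was at 51.2 and 41.4 CPM in fry1-6 rdr6-11, against 514 and 189 CPM in WT (log2 fold change -2.93, standard error 0.57, adjusted p = 0.0179). LEA14 (AT1G01470) was at 50.1 and 60.7 CPM in fry1-6 rdr6-11, against 185 and 137 CPM in WT (-1.54, standard error 0.32, adjusted p = 0.0214). LEA14 was also below both WT libraries in fry1-6 rdr1-1 (45.2 and 82.6 CPM) and in fry1-6 (67.0 and 84.7 CPM), without a call. These 2 were called of 11 tested LEA and cold-regulated genes outside the members. RD22 (AT5G25610), a dehydration-induced gene, was called lower (-1.95, standard error 0.48, adjusted p = 0.0335), 1 of 17 tested in its list. The mean of RD22 was 57.9 CPM in fry1-6 rdr6-11, 106 in fry1-6 rdr1-1, 94.9 in fry1-6 and 224 in WT. None of 5 tested genes of proline metabolism outside P5CS1 was called. Of 11 tested genes of the low-oxygen response, PCO2 (AT5G39890), a plant cysteine oxidase, was higher than in WT in fry1-6 rdr6-11 (log2 fold change 2.33, adjusted p = 0.0142) and in fry1-6 rdr1-1 (2.29, adjusted p = 0.0257), with 67 and 70 counts in fry1-6 rdr6-11, 79 and 55 in fry1-6 rdr1-1, and 9 in each WT library. The mean of PCO2 was 3.03 CPM in fry1-6 rdr6-11, 2.94 in fry1-6 rdr1-1, 2.21 in fry1-6, where it was not called, and 0.598 in WT. PDC2 (AT5G54960), a pyruvate decarboxylase, was lower in fry1-6 rdr6-11 than in WT (-1.43, standard error 0.30, adjusted p = 0.0216).

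**Figure D4:**
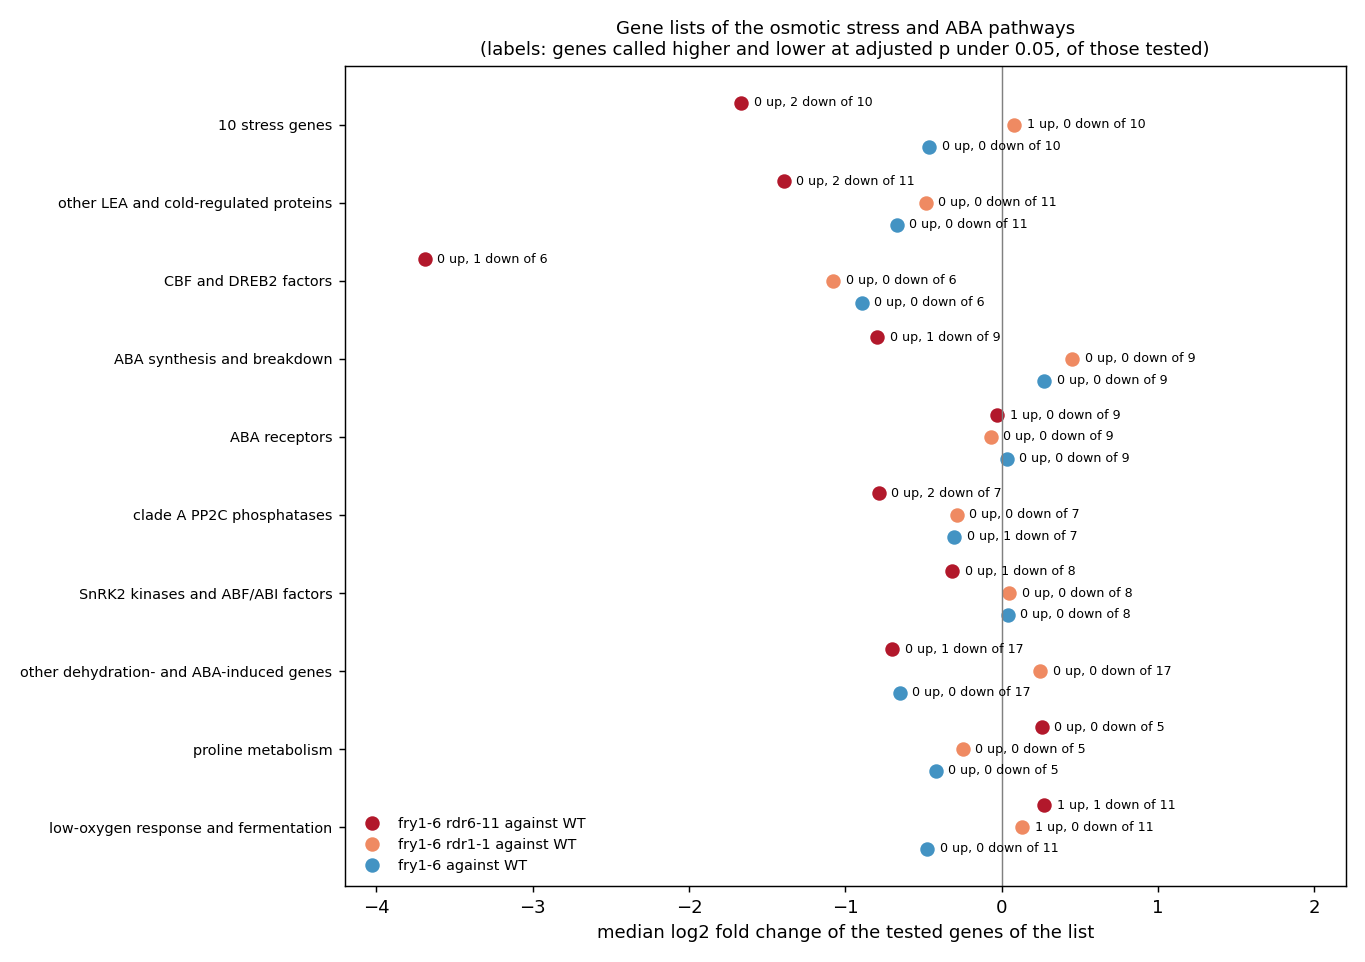
Median log2 fold change against WT of the tested genes in each list, for fry1-6 rdr6-11, fry1-6 rdr1-1 and fry1-6, with the numbers of genes called higher (up) and lower (down) beside each point. In fry1-6 rdr6-11 the members have a median of -1.67 with 2 genes called lower. The 6 tested genes of the CBF and DREB2 list, ICE1 among them, have one of -3.69 with 1 called lower. In that list CBF1, CBF2 and CBF3 differed 19.7-fold, 13.5-fold and 64.6-fold between the WT libraries. Their means in fry1-6 rdr6-11 were 0.290, 0.225 and 0.0655 CPM.

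Among the 3 leaf markers, both light-harvesting genes were lower in fry1-6 rdr6-11 than in fry1-6, LHCB1.1 (AT1G29920) by -2.36 on the log2 scale (standard error 0.40, adjusted p = 0.0327). LHCB2.1 (AT2G05100), which encodes a light-harvesting chlorophyll-binding protein, was at 52.6 and 41.3 CPM in fry1-6 rdr6-11, with 4053 and 2759 in fry1-6 rdr1-1, 2889.8 and 1711 in fry1-6, and 1553 and 751 in WT (log2 fold change -4.62 against WT, standard error 0.49, adjusted p = 0.00324). RBCS1A (AT1G67090), another leaf marker, was at 15243 and 13332 CPM in fry1-6 rdr6-11, against 15427 and 9704 CPM in WT. The 3 leaf markers summed to between 14268 and 16652 CPM in fry1-6 rdr6-11 and between 12146 and 19989 CPM in WT. LHCB2.1 belongs to a family of similar copies, so its reads may have been split among them. The part of leaf transcripts in the differences of the stress genes was not tested.

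The genes whose levels ran most like those of RD29A were sought by the root mean square difference of their centred log2 CPM over the 8 libraries, among 19217 genes whose mean log2 CPM reached 1, with the members left out. The 5 nearest were AT1G51090 (0.416), LSU2 (AT5G24660, 0.485), a gene of the sulfur-limitation response, SNZ (AT2G39250, 0.525), an AP2-type repressor of flowering, GolS2 (AT1G56600, 0.542), a galactinol synthase that makes osmoprotectant precursors, and GPAT2 (AT1G02390, 0.556). AT1G51090 was at 3.53 and 5.19 CPM in fry1-6 rdr6-11, with 8.01 and 43.2 in fry1-6 rdr1-1, 24.7 and 11.8 in fry1-6, and 60.4 and 7.11 in WT. Like RD29A it was higher in the first WT library and in the second fry1-6 rdr1-1 library, which the choice by these same libraries favours. Of the members, COR15A (0.563) and KIN2 (0.602) came nearest to RD29A. RAB18 was farther, at 1.18, and RD29B at 1.54 and ADH1 at 1.68 were the farthest.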

How the data were processed

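Libraries were sequenced as paired-end reads, mapped by the authors to Araport11 with STAR 2.6 within pRNASeqTools, with a read of several positions kept at 1 of them, and counted per gene with featureCounts 1.6.4. The authors deposited raw counts with the length of each gene, and strand and overlap handling are not given in the sources used here. Genes with low counts were removed (filterByExpr of edgeR, at a minimum of 10 counts and a total of 15), libraries were scaled by TMM, and genes were tested with the quasi-likelihood model of edgeR with 4 genotypes and 8 libraries (edgeR 4.0.16, limma 3.58.1, R 4.3.3). The model has 4 residual degrees of freedom and a biological coefficient of variation of 27.0%. A Benjamini-Hochberg adjusted p under 0.05 over 22744 genes was a call. An exact permutation test of 2 libraries against 2 cannot give a p under 0.333. The authors used DESeq2, run here (version 1.42.0) as an alternative.

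The members and lists were chosen with earlier results of these data known. All 10 members were named, and from each other list up to 4 genes with the smallest adjusted p among those called. The replicate numbers come from the titles. The deviations of same-numbered libraries from their genotype means were correlated across genes. The correlation was 0.668 for fry1-6 with WT, 0.183 for the double mutants, and -0.226 to -0.156 for the 4 other pairs of genotypes. The main fit did not take the numbers as pairs, so a deviation shared by fry1-6 and WT was not removed in it. Sequences and coordinates are from RefSeq, TAIR10.1, read with Python, and exon lengths matched those deposited for all 10 members. The fitting script was tested on simulated data.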

Additional observations from a re-analysis of the deposited data

How the results depend on the processing

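With 2 libraries a genotype, 4 residual degrees of freedom and members that varied widely between libraries, only large differences could pass the threshold. The median log2 fold change of the members changed sign when a library was left out in fry1-6 against WT (-0.68 to 0.20) and in fry1-6 rdr1-1 against WT (-0.41 to 0.82), and kept its sign in the 4 other comparisons. Leaving out organelle genes or using DESeq2's size factors in edgeR changed no count of members called. Between fry1-6 rdr6-11 and WT, where 2 members were called, the count was 7 with DESeq2, 4 with no filter on low counts, 1 with total counts, 1 with at least 10 counts in every library (9 members tested) and 0 to 6 when a library was left out. In fry1-6 rdr1-1 against WT, where 1 was called (RD29B), it was 0 with only the genotypes compared and 0 with no filter. It was also 0 with at least 10 counts in every library, but that filter removed RD29B, which had 8 counts in the second WT library. The log2 fold change of RD29B ran from 1.48 to 2.15 when a library was left out. Set against fry1-6, fry1-6 rdr6-11 had 1 member called, and the count was 3 with DESeq2, 3 with only the genotypes compared, 2 with no filter and 0 to 2 when a library was left out. Between fry1-6 rdr6-11 on one side and fry1-6 rdr1-1 on the other, where 1 was called, it was 3 with DESeq2, 3 with only the genotypes compared, 0 with total counts and 0 to 2 when a library was left out. In fry1-6 against WT and in fry1-6 rdr1-1 against fry1-6 it was 0 in each alternative. Leaving out a library leaves its genotype with a single library, which is assumed to vary like the others. Beyond the smaller number of libraries or genes in some fits, the cause was not tested.

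With the replicate number as a block, the count was 1 in fry1-6 rdr6-11 against WT, 0 in fry1-6 rdr1-1 against WT and 0 in fry1-6 rdr6-11 against fry1-6 rdr1-1, and the block changed no other count of members called. The labels do not say that a number marks a shared batch, day or plant. Between libraries of the same number, 5 members (RD29A, COR15A, KIN1, KIN2 and COR47) were lower in fry1-6 than in WT both times. Another 2 (RAB18 and P5CS1) were higher both times, and how many of all tested genes kept a direction was not counted. The smallest adjusted p of a member with the block in fry1-6 against WT was 0.276.

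Some differences that were not called changed sign. For COR47 in fry1-6 rdr1-1 against WT the log2 fold change was 0.030, and it was -0.029 with DESeq2, -0.027 with its size factors, -0.018 with only the genotypes compared and -0.0021 with the replicate block. For KIN1 in fry1-6 rdr6-11 against fry1-6 it was 0.00012 with the block. When a library was left out, in fry1-6 against WT the log2 fold change ran from -2.92 to 0.45 for RD29A, -0.49 to 0.19 for RD29B, -2.36 to 1.45 for KIN1, -2.14 to 0.055 for KIN2, -0.94 to 0.029 for COR47 and -0.34 to 0.34 for ADH1. In fry1-6 rdr6-11 against WT it ran from -0.25 to 0.42 for RD29B and -1.78 to 1.21 for KIN1. In fry1-6 rdr1-1 against WT it ran from -2.44 to 1.57 for RD29A, -2.62 to 1.16 for COR15A, -0.52 to 2.47 for KIN1, -2.59 to 0.26 for KIN2, -0.42 to 0.53 for RAB18, -0.83 to 0.33 for ERD10 and -0.40 to 0.36 for COR47. In fry1-6 rdr6-11 against fry1-6 it ran from -1.44 to 0.23 for COR15A and -1.02 to 1.42 for KIN1. In fry1-6 rdr1-1 against fry1-6 it ran from -0.40 to 1.84 for RD29A, -1.16 to 0.90 for KIN2, -0.28 to 0.97 for ERD10, -0.016 to 0.93 for COR47 and -0.079 to 0.64 for ADH1. In fry1-6 rdr6-11 against fry1-6 rdr1-1 it ran from -0.15 to 0.38 for ADH1.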

Other observations

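A further set of genes, chosen after their values were seen, also lay far apart between libraries of a genotype. CBF3 (AT4G25480), a cold-induced DRE-binding factor, was at 0.0850 and 0.0460 CPM in fry1-6 rdr6-11 (2 counts and 1 count), with 0.648 and 2.95 in fry1-6 rdr1-1, 9.36 and 0.130 in fry1-6, and 23.7 and 0.368 in WT. NCED3 (AT3G14440), the dioxygenase of stress-induced ABA synthesis, was at 1.95 and 3.45 CPM in fry1-6 rdr6-11, with 5.37 and 14.3 in fry1-6 rdr1-1, 36.7 and 3.25 in fry1-6, and 35.1 and 2.94 in WT. Both were higher in the first library of fry1-6 and of WT and in the second library of fry1-6 rdr1-1. PRODH1 (AT3G30775), the proline dehydrogenase of proline breakdown, ran the other way in fry1-6, WT and fry1-6 rdr1-1. It was at 1608 and 672 CPM in fry1-6 rdr6-11, with 222 and 52.6 in fry1-6 rdr1-1, 24.9 and 495 in fry1-6, and 9.08 and 991 in WT. None of these 3 genes was called in any comparison.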
